A study of Homo sapiens with 8 samples.

Results

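Fibronectin (FN1), SPARC, biglycan (BGN), decorin (DCN), lumican (LUM), periostin (POSTN), tenascin C (TNC), tenascin X (TNXB), versican (VCAN) and IGFBP7 are secreted matrix proteins of stromal cells, and binding of LARP6 to their 10 mRNAs was examined by eCLIP. In eCLIP, RNA is crosslinked to protein with ultraviolet light, trimmed, immunoprecipitated, size-selected on a gel and sequenced beside an input of the same size. The cells were human hepatic stellate cells of wild-type genotype, grown in serum-containing medium and given TGFβ1 at 5 ng/ml, or not (control). The control is labelled untreated in some fields and DMSO in others, which leaves the use of a vehicle unknown. Each condition had 2 immunoprecipitated libraries, and the 2 input libraries of each condition enter only as the denominator of the authors' folds. Every region whose midpoint lay within the bounds of one of the 10 genes, on the strand of that gene, was taken. These were 1618 of 176826 tested clusters over the 4 libraries, with 379 of 31137 in TGFβ1 replicate 1, 490 of 54536 in TGFβ1 replicate 2, 373 of 51273 in control replicate 1 and 376 of 39880 in control replicate 2. The 10 genes were among 9193 protein-coding genes with a tested cluster.

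LARP6 is an RNA-binding protein of the La-related family, known for binding a stem-loop near the start codon of type I and type III collagen mRNAs. Hepatic stellate cells become collagen-producing myofibroblasts when activated, and TGFβ1 is the cytokine best known for driving that change. The 10 proteins are laid down in the same matrix as the collagens. Fibronectin is the adhesive glycoprotein on which collagen fibrils are assembled, decorin, biglycan and lumican are small leucine-rich proteoglycans that bind fibrils, and versican is a large proteoglycan that binds hyaluronan. SPARC and periostin are matricellular proteins that bind collagen, tenascin C and tenascin X are large modular glycoproteins, and IGFBP7 is a secreted protein that binds insulin-like growth factors.

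A tested cluster is a stretch of RNA for which the authors gave a log2 fold over input and a −log10 p-value, capped at 400. All folds and −log10 p-values of clusters and peaks given here are the authors'. Enriched means that both the log2 fold and the −log10 p were 3 or more. The files hold no read counts, so the depth of each library is unknown, and intervals given for shares of clusters cover counting error only. The labels do not state whether the replicates were separate cultures, and p-values measure only the spread between these libraries, which may be technical. With 2 libraries in each condition, the smallest two-sided p of an exact permutation test is 0.333. RNA abundance was not measured in these files, and the number of tested clusters does not stand for it: fewer cells and less RNA per cell cannot be told apart, nor can a change in an mRNA and a change in its crosslinking.

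The 10 mRNAs carried many tested clusters but few enriched ones. TGFβ1 replicate 1 held 1 enriched cluster in these genes (0.264%, 95% Wilson interval 0.0466 to 1.48), against 2.69% of all its tested clusters. TGFβ1 replicate 2 held 4 (0.816%, 0.318 to 2.08), against 3.64% of all. Control replicate 1 held 1 (0.268%, 0.0473 to 1.50), against 1.21% of all, and control replicate 2 held 2 (0.532%, 0.146 to 1.92), against 2.09% of all. The share in the 10 genes was thus below the share over all clusters in each of the 4 libraries. All 8 enriched clusters lay in TNXB, FN1 or IGFBP7, at 1 place in each. The 2 of FN1 in TGFβ1 replicate 2 abut, as do the 2 of TNXB in control replicate 2. The shares and intervals thus count pieces of places, not independent sites. The share was 0.540 ± 0.391% in TGFβ1 libraries and 0.400 ± 0.187% in control libraries (SD, n = 2 each), which differed by less than the spread between replicates (exact permutation p = 1). Its sign rested on TGFβ1 replicate 2, without which the difference was -0.136 percentage points, against 0.140 with it.

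COL1A1 and COL1A2, the chains of type I collagen, and COL3A1, the chain of type III collagen, were enriched at many more of their clusters in the same libraries. Of their clusters, 95 of 456 (20.8%) were enriched in TGFβ1 replicate 1 and 130 of 541 (24.0%) in TGFβ1 replicate 2. In control replicate 1 it was 57 of 359 (15.9%), and in control replicate 2 it was 123 of 447 (27.5%). FN1 alone had 158 and 195 clusters in TGFβ1 replicates 1 and 2, against 145 and 153 in control replicates 1 and 2. COL1A2 had 165 and 193 in TGFβ1 replicates 1 and 2, against 146 and 162 in control replicates 1 and 2. Over the mean of the 4 libraries only 2 other protein-coding genes had at least as many clusters as FN1. FN1 was thus tested about as often as COL1A2, but 2 of its clusters were enriched in TGFβ1 replicate 2 and 0 in each other library.

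**Figure D1:**
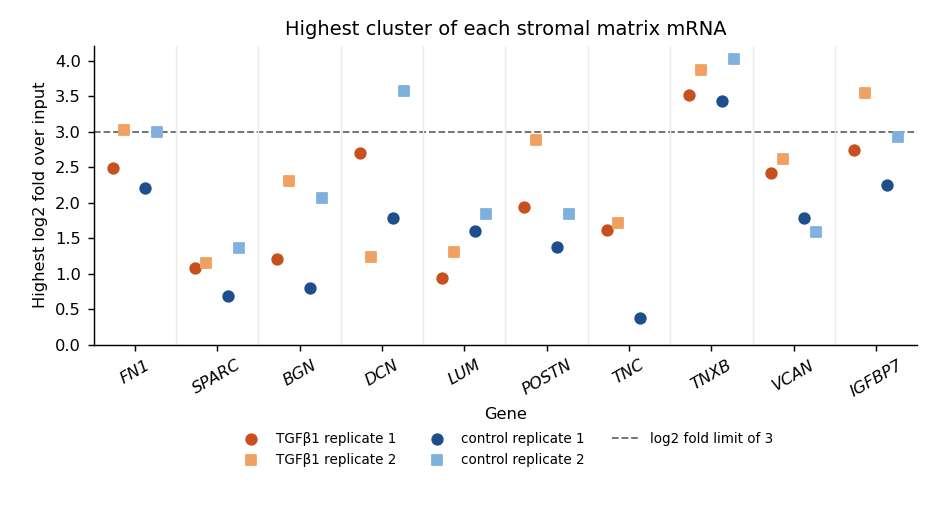
Highest log2 fold over input of any tested cluster of each gene (vertical axis), with 1 point per library and TGFβ1 libraries left of control libraries. The dashed line is the log2 fold limit of 3: TNXB was above it in all 4 libraries, IGFBP7 and FN1 in TGFβ1 replicate 2, and DCN in control replicate 2, where its −log10 p of 2.97 missed the limit.

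The typical cluster of the 10 mRNAs was close to its input. The median log2 fold of their clusters was 0.20 and 0.21 in TGFβ1 replicates 1 and 2, against 0.12 and 0.26 in control replicates 1 and 2. The medians of all tested clusters were 0.94 and 0.82 in TGFβ1 replicates 1 and 2, against 0.38 and 0.85 in control replicates 1 and 2. In TGFβ1 libraries 79.2% and 80.2% of the members' clusters lay below the median of their library, as did 59.2% and 69.4% in control libraries. The library median is not an even yardstick, because 19.6% and 15.4% of all clusters in TGFβ1 libraries, and 28.8% and 25.1% in control libraries, share 1 single fold value, which in both control libraries is the median itself. Only 2.90% and 1.84% of the members' clusters in TGFβ1 libraries, and 5.90% and 4.26% in control libraries, had that value.

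By significance alone, the pooled share of the 10 genes lay above the background in each of the 4 libraries, mainly through FN1 and IGFBP7. Clusters with a −log10 p of at least 3, whatever their fold, numbered 37 (9.76%) in TGFβ1 replicate 1, where 5.37% of all clusters passed. They numbered 70 (14.3%) in TGFβ1 replicate 2, where 6.72% of all passed. Control replicate 1 had 13 (3.49%), against 2.16% of all, and control replicate 2 had 39 (10.4%), against 3.86% of all. FN1 held 22 and 39 of them in TGFβ1 replicates 1 and 2, against 6 and 25 in control replicates 1 and 2. IGFBP7 held 10 and 11 with TGFβ1, against 5 and 8 in control, all of them pieces of 1 site. The rest were few: SPARC held 3 and 11 with TGFβ1, against 0 and 3 in control. VCAN held 1 and 6, against 0 and 0, and TNXB held 1 and 3, against 2 and 3. The pooled shares thus do not describe most of the 10 genes, and they count pieces of places. Most of those in FN1 had a log2 fold under 2, which 2 and 4 reached with TGFβ1 and 2 and 3 in control. In IGFBP7, 1 and 6 reached it with TGFβ1, against 1 and 4 in control. Clusters with a −log10 p of at least 3 made up 12.0 ± 3.20% of the members' clusters in TGFβ1 libraries. In control libraries it was 6.93 ± 4.87% (SD, n = 2 each, exact permutation p = 0.667), with groups that overlapped. Joined where at most 20 nt apart and over all libraries, these clusters made 36 sites, of which 5 passed in all 4 libraries and 15 in a single one. FN1 held 19 of the sites, SPARC 8, VCAN 5, TNXB 3 and IGFBP7 1, and the other 5 genes held 0.

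The reproducible-peak lists, which the authors derived from the pair of replicates of each condition, held 2 peaks of these genes among 1008 peaks with TGFβ1 and 2 among 627 in control. The TGFβ1 peaks lay in TNXB and IGFBP7, and both control peaks lay in TNXB. So 2 of the 10 genes had a reproducible peak with TGFβ1, against 7.04% of 5372 protein-coding genes tested in both libraries, and 1 of the 9 that were tested in both libraries in control, against 3.88% of 5489. TNC, with 0 clusters in control replicate 2, falls outside the control count. Counts this small say nothing of the members as a group. In the lists, 1 of the 2 TGFβ1 peaks overlapped a control peak and both control peaks overlapped a TGFβ1 peak, all at the TNXB site.

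TNXB, which encodes a tenascin that joins collagen fibrils in connective tissue, had the only place of the 10 mRNAs that was enriched in all 4 libraries. The reproducible TGFβ1 peak (GRCh38, chromosome 6, 32069023 to 32069105, minus strand, 83 nt) had a list log2 fold of 3.70 and a −log10 p of 5.22. The 2 control peaks, at 32069031 to 32069063 and 32069064 to 32069103, had list log2 folds of 3.73 and 3.46, and they split the same site. The site began 40233 nt downstream of the gene's annotated start and ended 27870 nt before its 3′ end, counted along the genome. The annotation used here gives gene bounds only, so whether it is exonic is not stated. The highest log2 fold there was 3.53 in TGFβ1 replicate 1 (−log10 p of 5.22) and 3.87 in TGFβ1 replicate 2 (13.6), against 3.44 in control replicate 1 (8.14) and 4.03 in control replicate 2 (12.8). The means were 3.70 ± 0.25 with TGFβ1 and 3.74 ± 0.42 in control (SD, n = 2 each), and the groups overlapped. With each library's median subtracted the values were 2.58 and 3.05 in TGFβ1 libraries, against 3.06 and 3.19 in control libraries. The groups then no longer overlapped, by the narrow margin of 3.05 against 3.06. Of 7563 stretches covered by clusters in all 4 libraries, 15.7% were likewise lower in both TGFβ1 libraries on this scale. The median of control replicate 1 is a value shared by 28.8% of its clusters, so this separation is not a result about TNXB.

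Around the TNXB site the transcript was nearly bare. Within 150 nt of its centre, 1 cluster of control replicate 2 was the only other one, with a log2 fold of 1.72 and a −log10 p of 0.82. A second place of TNXB, at 32095673 to 32095777, reached a −log10 p of 3 in 3 libraries, with log2 folds of 1.62 and 2.71 in TGFβ1 replicates 1 and 2, against 1.94 and 1.89 in control replicates 1 and 2. That place was below the fold limit in every library. TNXB shares part of its sequence with the pseudogene TNXA, so reads of that part could be split between the copies, and whether these sites lie in it was not tested.

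**Figure D2:**
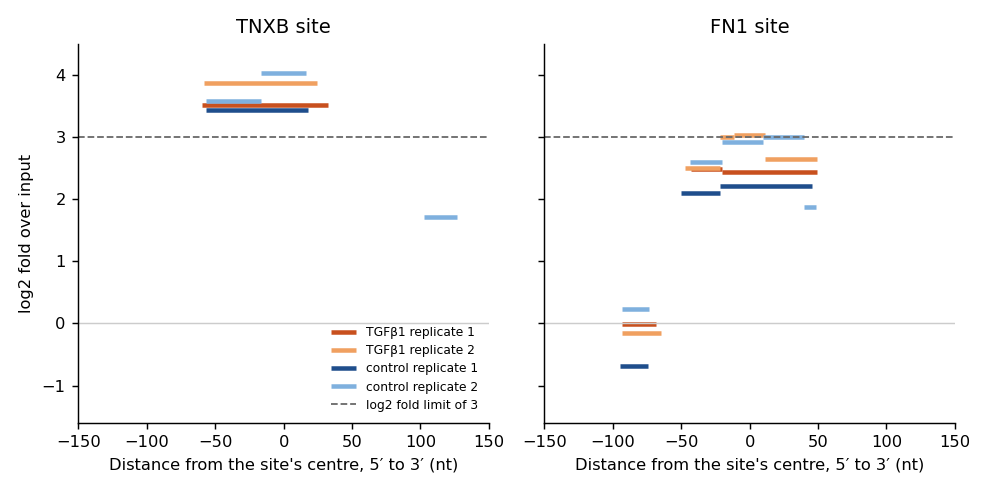
Log2 fold over input (vertical axis) of each cluster as a bar that spans its length, against distance in nt from the centre of the highest place of TNXB (left) and FN1 (right), 5′ to 3′. In TNXB all bars within 60 nt of the centre exceed 3, and in FN1 the bars at the centre run between 2.21 and 3.03, with folds between -0.68 and 0.24 about 80 nt upstream.

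IGFBP7 had its reproducible peak near the start of the gene. The TGFβ1 peak (GRCh38, chromosome 4, 57110157 to 57110167, minus strand, 11 nt) began 218 nt downstream of the gene's annotated start, with a list log2 fold of 3.14 and a −log10 p of 57.6, and the control list had no peak there. The log2 fold at that place was 2.74 in TGFβ1 replicate 1 (−log10 p of 57.4) and 3.54 in TGFβ1 replicate 2 (400, the cap), against 2.25 in control replicate 1 (22.1) and 2.92 in control replicate 2 (48.2). All 4 libraries had it, but only TGFβ1 replicate 2 was above the fold limit. The means were 3.14 ± 0.57 with TGFβ1 and 2.59 ± 0.48 in control (SD, n = 2 each). The higher control library exceeded the lower TGFβ1 library, so presence in 1 list and not in the other did not go with separate groups. With TGFβ1 replicate 1 itself under 3, the listed peak was not enriched in each replicate.

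The IGFBP7 signal had the same outline in all libraries. Every IGFBP7 cluster past the p limit lay in the first 500 nt, which held 12 and 12 clusters in TGFβ1 replicates 1 and 2, against 8 and 11 in control replicates 1 and 2. Of these, 10 and 11 passed the p limit in the TGFβ1 libraries, as did 5 and 8 in the control libraries. Within the first 500 nt the fold was low at the extreme 5′ end, with 0.24 and 0.26 in TGFβ1 replicates 1 and 2, against -0.58 and -0.30 in control replicates 1 and 2. It was highest at about 218 nt and lower at 277 to 293 nt, with 0.54 and 1.18 in TGFβ1 replicates 1 and 2, against 0.68 and 0.60 in control replicates 1 and 2. Still further 3′, at 328 to 360 nt, it was higher again, with 1.36 and 1.35 in TGFβ1 libraries, against 1.30 and 1.25 in control libraries. Joined together, the clusters past the p limit made a single 330-nt site, 57109942 to 57110271, present in all 4 libraries. The promoter and transcript sequence of this place was not used here.

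**Figure D3:**
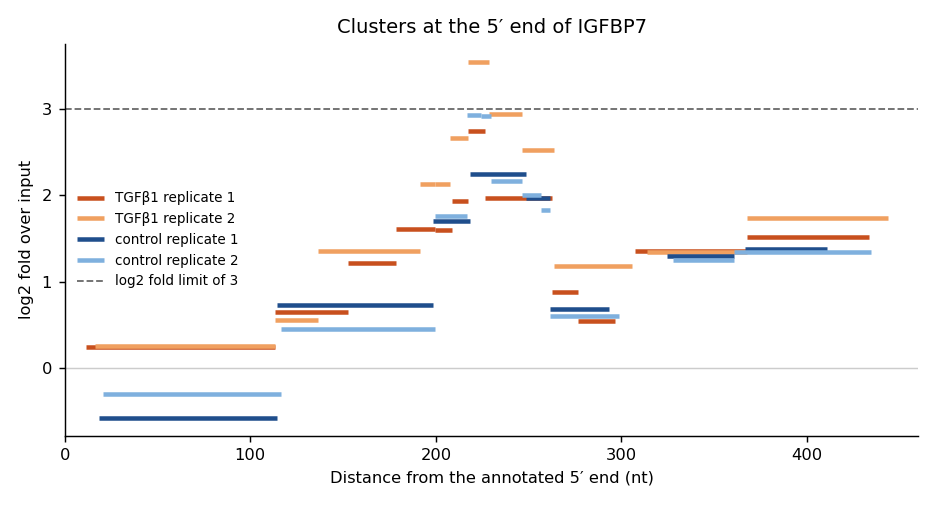
Log2 fold over input (vertical axis) of each IGFBP7 cluster as a bar that spans its length, against distance in nt from the annotated 5′ end. In all 4 libraries the bars climb to a peak near 218 nt, with 2.74 and 3.54 in TGFβ1 libraries and 2.25 and 2.92 in control libraries, and drop on both sides.

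FN1 had 1 sharp place amid a long run of low clusters. The place (GRCh38, chromosome 2, 215419281 to 215419303, minus strand) began 16765 nt downstream of the gene's annotated start. Its log2 fold was 2.44 in TGFβ1 replicate 1 (−log10 p of 47.9) and 3.03 in TGFβ1 replicate 2 (400, the cap), against 2.21 in control replicate 1 (20.6) and 2.997 in control replicate 2 (35.5), the last being just under the limit of 3. The means were 2.74 ± 0.41 with TGFβ1 and 2.60 ± 0.56 in control (SD, n = 2 each), and the groups overlapped. The site past the p limit there was 100 nt long, 215419243 to 215419342, and the next stretch upstream, 215419357 to 215419386, had -0.00 and -0.16 in TGFβ1 replicates 1 and 2, against -0.68 and 0.24 in control replicates 1 and 2. Neither reproducible list held a peak of FN1.

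Along FN1, 49 stretches had a cluster in all 4 libraries, a stretch being what overlapping or abutting clusters cover. The highest fold per stretch had a median of 0.40 and 0.46 in TGFβ1 replicates 1 and 2, against 0.46 and 0.70 in control replicates 1 and 2. The sharp place was the 1 stretch that reached 2 in any library, and it did so in all 4. The second highest stretch, a different one in each library, reached 1.70 and 1.65 in TGFβ1 libraries, against 1.53 and 1.91 in control libraries. At the 5′ end of the gene, 167 nt in, a site of 246 nt passed the p limit in all 4 libraries with log2 folds of 1.70 and 1.61 in TGFβ1 replicates 1 and 2, against 0.63 and 1.35 in control replicates 1 and 2. There both TGFβ1 libraries were above both control libraries. Another such site, 399 nt from the 3′ end, had 0.92 and 1.06 in TGFβ1 libraries, against 1.13 and 1.26 in control libraries, so the order of the groups was the other way round.

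The pattern along FN1 was shared between libraries of both conditions. Over the 49 stretches, Pearson's r between pairs of libraries ran between 0.60 and 0.84 and Spearman's rho between 0.49 and 0.77. Without the sharp place, r ran between 0.49 and 0.79. These describe stretches of 1 transcript, which share library, length and base composition and are not replicates. The lncRNA FN1-DT and ATIC overlap FN1 on the opposite strand, and 35 and 81 of its clusters lay within their bounds.

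**Figure D4:**
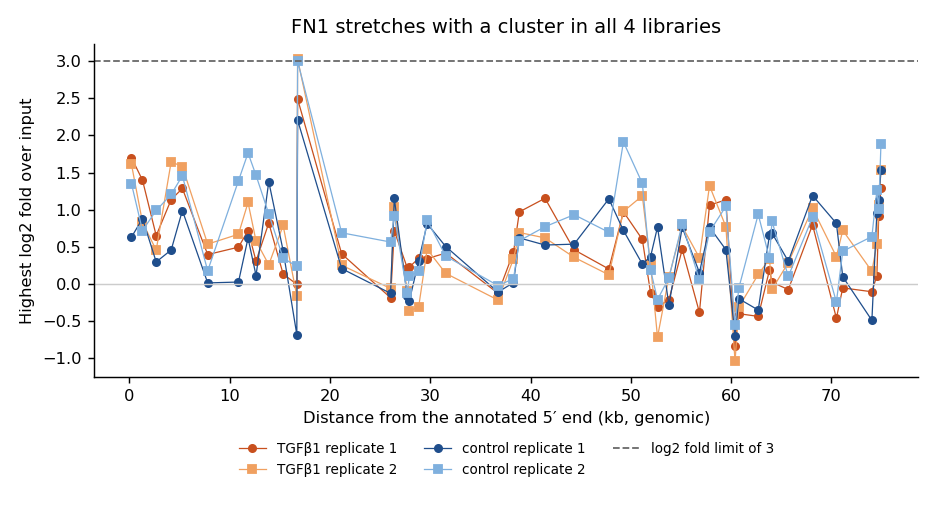
Highest log2 fold over input (vertical axis) of each of the 49 FN1 stretches with a cluster in all 4 libraries, against genomic distance in kb from the annotated 5′ end, with 1 line per library. A single stretch at about 17 kb stands above 2 in all 4 libraries, and no other stretch exceeds 1.91.

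The matricellular members had clusters of small fold. SPARC had 37 and 46 clusters in TGFβ1 replicates 1 and 2, against 28 and 30 in control replicates 1 and 2, and 0 were enriched in any library. Its highest log2 fold was 1.09 and 1.15 in TGFβ1 replicates 1 and 2, against 0.69 and 1.37 in control replicates 1 and 2, and the groups overlapped. The highest SPARC place (GRCh38, chromosome 5, 151662526 to 151662607, minus strand), 1430 nt from the 3′ end, had 0.49 and 0.81 with TGFβ1, against 0.69 and 1.37 in control. Another SPARC site, 151676131 to 151676173, had 1.09 and 1.15 in TGFβ1 libraries, against 0.20 and 0.39 in control libraries. At 151663249 to 151663347 the order was reversed, with 0.35 and 0.10 in TGFβ1 libraries, against 0.61 and 0.98 in control libraries. Of 15 SPARC stretches with a cluster in all 4 libraries, 3 were higher in both TGFβ1 libraries and 4 were lower. Over all 7563 such stretches the shares were 32.3% and 9.44%. POSTN had 18 and 26 clusters with TGFβ1, against 17 and 13 in control. Its highest log2 fold was 1.94 and 2.89 in TGFβ1 replicates 1 and 2, against 1.38 and 1.85 in control replicates 1 and 2. The highest POSTN place, at 2.89 (chromosome 13, 37586865 to 37586929), had a −log10 p of only 1.57 and a log2 fold of 0.03 in TGFβ1 replicate 1, so it did not recur.

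Among the small leucine-rich proteoglycans, 0 clusters of BGN, DCN or LUM reached a −log10 p of 3. BGN had 18 and 18 clusters in TGFβ1 replicates 1 and 2, against 6 and 6 in control replicates 1 and 2, with highest log2 folds of 1.20 and 2.31 in TGFβ1 libraries, against 0.79 and 2.07 in control libraries. Its highest place (chromosome X, 153499799 to 153499831, plus strand) had a cluster in 2 libraries only. DCN had 16 and 21 clusters with TGFβ1, against 19 and 22 in control, with highest log2 folds of 2.71 and 1.24 in TGFβ1 libraries, against 1.79 and 3.58 in control libraries. The highest DCN place (chromosome 12, 91146070 to 91146144, minus strand) had 0.23 and 1.24 in TGFβ1 libraries, against 0.19 and 3.58 in control libraries. Its high value thus stood in control replicate 2 alone, with a −log10 p of 2.97. LUM had 6 and 4 clusters with TGFβ1, against 6 and 4 in control, and its highest log2 fold was 0.94 and 1.31 in TGFβ1 libraries, against 1.60 and 1.85 in control libraries. The highest LUM place (chromosome 12, 91108918 to 91108986, minus strand) had a cluster in 2 libraries only.

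VCAN, the large hyaluronan-binding proteoglycan, had 64 and 77 clusters in TGFβ1 replicates 1 and 2, against 39 and 32 in control replicates 1 and 2. Its highest log2 fold was 2.43 and 2.61 in TGFβ1 libraries, against 1.79 and 1.58 in control libraries, so the groups did not overlap. A highest fold grows with the number of clusters, and the share of all genes that separate in this way is not given here. The −log10 p of the 2.43 was 0.83, and that of the 2.61 was 10.5. The highest VCAN place (chromosome 5, 83580519 to 83580576, plus strand), 1726 nt from the 3′ end, had 1.26 and 2.61 in TGFβ1 libraries, against 1.12 and 0.96 in control libraries. Of the 5 VCAN sites past the p limit, 4 passed in a single library and 0 in a control library. Over all clusters, 5.37% and 6.72% passed that limit in TGFβ1 libraries, against 2.16% and 3.86% in control libraries. With 39 and 32 VCAN clusters in control libraries, and sites chosen by passing in any library, the 0 is not a result about VCAN. TNC, the tenascin of wounds and tumour stroma, had 1 and 5 clusters in TGFβ1 replicates 1 and 2, against 1 and 0 in control replicates 1 and 2, and its highest log2 fold was 1.62 and 1.72 with TGFβ1, against 0.38 in control replicate 1. Its highest place (chromosome 9, 115038359 to 115038381, minus strand) had a cluster in TGFβ1 replicate 2 alone. With 7 clusters over 4 libraries for TNC and 20 for LUM, against 651 for FN1, the 10 mRNAs were far from equally covered.

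Scaled to 10000 tested clusters of the library, the number of clusters separated the conditions in some of the mRNAs, about as often as in other genes. VCAN had 20.6 and 14.1 per 10000 in TGFβ1 replicates 1 and 2, against 7.61 and 8.02 in control replicates 1 and 2. BGN had 5.78 and 3.30 in TGFβ1 libraries, against 1.17 and 1.50 in control libraries. SPARC had 11.9 and 8.43 with TGFβ1, against 5.46 and 7.52 in control. In these mRNAs and in POSTN, which had 5.78 and 4.77 with TGFβ1 against 3.32 and 3.26 in control, both TGFβ1 libraries were above both control libraries. TNXB had 14.1 and 14.7 with TGFβ1, against 16.2 and 24.1 in control, and was the only one of the 10 mRNAs lower in both TGFβ1 libraries. Among 3542 protein-coding genes with a mean of at least 3 clusters, 31.7% were higher in both TGFβ1 libraries and 25.1% were lower. Of the 9 members in that set, 4 were higher, 1 was lower, and FN1, DCN, LUM and IGFBP7 overlapped between the groups. With 9 genes, 4 higher is near the background share, so the count is not a result about the members. TNC, outside that set, had 0.321 and 0.917 with TGFβ1, against 0.195 and 0 in control.

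**Figure D5:**
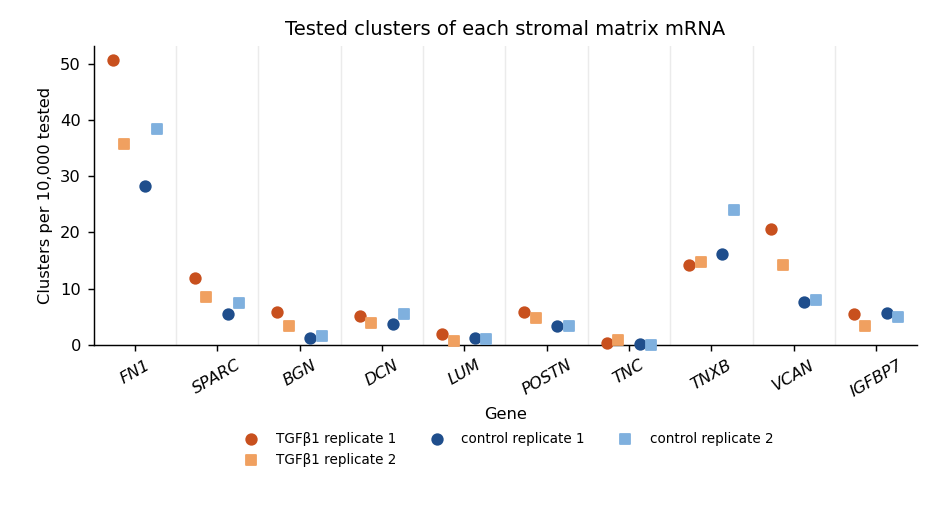
Tested clusters per 10000 tested clusters of the library (vertical axis) for each gene, with 1 point per library and TGFβ1 libraries left of control libraries. VCAN lies at 20.6 and 14.1 with TGFβ1 and at 7.61 and 8.02 in control, and TNXB lies lower with TGFβ1 than in control.

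The heights of the members' clusters did not move in 1 direction with TGFβ1. Of the 9 genes with a cluster in all 4 libraries, 6 had a higher mean highest fold in TGFβ1 libraries, and the median difference was 0.16 on the log2 scale. POSTN and VCAN were higher in both TGFβ1 libraries than in both control libraries, and LUM was lower in both. A highest fold grows with the number of clusters, and POSTN and VCAN had more clusters in both TGFβ1 libraries. The share of all genes that separate in this way is not given here, so these cases are not a result about the members. With the library median subtracted, VCAN kept its order and POSTN tied, with 1.00 and 2.07 in TGFβ1 libraries, against 1.00 and 1.00 in control libraries. LUM stayed lower, and TNXB became lower by a narrow margin, 3.05 in TGFβ1 replicate 2 against 3.06 in control replicate 1. For these orders, too, the share of all genes is not given, so they are not a result about the members. The median fold of all clusters differed between the conditions by 0.27 (means of 0.88 in TGFβ1 libraries and 0.61 in control libraries), and the members' median fold did so by 0.02 as deposited and by -0.25 relative to it (exact permutation p = 1 and 0.333, two-sided). Without control replicate 1 the first difference was -0.05.

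Over the 118 stretches of the members with a cluster in all 4 libraries, 21 were higher in both TGFβ1 libraries and 23 were lower. Over all 7563 such stretches 32.3% were higher and 9.44% were lower, against 17.8% and 19.5% of the members' stretches. With the library median subtracted, 13 member stretches were higher and 36 lower, where 22.1% of all were higher and 15.7% lower. With length-weighted mean folds in place of the highest, it was 12 and 50, where 21.7% of all were higher and 16.5% lower. FN1 held 31 of these 50 lower stretches and 0 of the 12 higher ones. In FN1, 6 stretches were higher and 11 lower as deposited, and 1 was higher and 17 lower with the median subtracted. Stretches of a gene share its mRNA level and its libraries, so these counts describe the 4 libraries.

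Among genes related to the members by family or partnership, reproducible peaks lay in fibronectin receptors and in other IGF binding proteins. Of the fibronectin receptor genes tested in both libraries of a condition, 2 of 6 had a peak with TGFβ1 and 1 of 5 in control, beside 7.04% and 3.88% of protein-coding genes. Of the other IGF binding protein genes tested likewise, 1 of 4 had a peak with TGFβ1 and 2 of 5 in control. These counts are too small to set the lists apart from that background. Of the 8 fibronectin receptor genes, ITGB1, the integrin beta chain shared by many receptors, had 6 peaks in the TGFβ1 list and 3 in the control list, and ITGAV, an integrin alpha chain, had 2 in the TGFβ1 list and 0 in the control list. Of the 6 other IGF binding protein genes, IGFBP4 had 6 peaks in the TGFβ1 list and 9 in the control list, and IGFBP6 had 0 and 1. The highest log2 fold of IGFBP4 was 6.40 and 6.43 in TGFβ1 replicates 1 and 2, against 6.47 and 7.27 in control replicates 1 and 2, well above the 2.74 and 3.54, against 2.25 and 2.92, of IGFBP7. None of the 10 other small leucine-rich proteoglycans, 7 other hyalectans, tenascins and link proteins, and 9 relatives of SPARC and periostin had a reproducible peak, though 6, 1 and 5 of them had any tested cluster. Only 3, 0 and 4 were tested in both TGFβ1 libraries, and 4, 0 and 4 in both control libraries. With so few genes, the absence of peaks says nothing of these lists.

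The genes most like FN1 in cluster numbers and highest folds over the 4 libraries, by Euclidean distance among 480 genes with at least 10 clusters in each library, were CALD1, EXT1 and TRIO. CALD1, which encodes the actin-binding protein caldesmon, had 148 and 161 clusters in TGFβ1 replicates 1 and 2, against 160 and 132 in control replicates 1 and 2. Its highest log2 fold was 2.79 and 2.53 in TGFβ1 libraries, against 2.12 and 2.58 in control libraries. The genes most like SPARC were ANXA2, PABPC1 and LMCD1. None of these 6 genes had an enriched cluster in any library. Because they were chosen by their highest folds, that absence follows in large part from the choice.

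Tested clusters of cell type markers are given beside the cells' label, which they cannot check, since the number of clusters does not stand for RNA abundance. Of 9 stellate cell or fibroblast markers, 7 had clusters in each library (DES and LRAT had none), with 437 to 648 clusters per library. Most of these lay in the markers COL1A1, COL1A2 and COL3A1, which are known LARP6 targets. These collagens held 456 of 537 and 541 of 648 in TGFβ1 replicates 1 and 2. In control replicates 1 and 2 they held 359 of 437 and 447 of 526. Of 6 hepatocyte and 5 endothelial markers, 0 had a cluster. Of 5 macrophage markers, 1 (CD68) had 2 to 4 clusters. Of 4 cholangiocyte markers, 2 (KRT7 and SOX9) had 15 and 18 clusters in TGFβ1 replicates 1 and 2, against 2 and 3 in control replicates 1 and 2. Their part in the members' results was not tested.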

How the data were processed

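LARP6 eCLIP peak lists of 4 immunoprecipitated libraries and 2 lists of reproducible peaks were used, from 8 samples in 4 groups. The inputs entered only through the authors' fold. Cutadapt, STAR, UMI-tools and GRCh38 are named, without versions or order, per the submitters' processing notes, and the peak caller, input normalisation and joining rule are not given in the sources used here. From their values, the deposited columns were read as the authors' log2 fold over size-matched input and the authors' −log10 p-value, so this reading is not stated by a header. Reproducible lists hold no value under 3. How ties and low read numbers set the fold values is not known.

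Clusters were assigned by midpoint and strand to RefSeq gene bounds of GRCh38.p14. The strand came from the RefSeq promoter table or, for genes missing there, from the majority of clusters. For 6041 genes with both, 94.8% had the same strand. Coordinates are 1-based, and peaks were shared at an overlap of at least 1 nt. Groups were compared by exact permutation of libraries, and other settings are given in the closing section. The code was checked on simulated data: 200 of 200 genes got their planted clusters, and 120 of 120 planted overlaps were found. Of stretches, 200 of 200 raised and 241 of 1800 unchanged ones were called higher.

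The members and gene lists were chosen with earlier results of these data known. Named were all 10 members, every reproducible peak site in them, the highest cluster of each member without one, the 3 collagens, listed relatives with a reproducible peak, and the 3 genes nearest to FN1 and to SPARC. FN1, TNXB and SPARC places other than the highest were named after their values were seen. Software versions were NumPy 2.4.6, SciPy 1.17.1, pandas 2.3.3, matplotlib 3.10.9 and Python 3.11.15.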

Additional observations from a re-analysis of the deposited data

How the results depend on the processing

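The difference in enriched share, 0.140 percentage points (TGFβ1 minus control), was 0.457 at a log2 fold limit of 2, -0.133 at a limit of 4, 0.00710 at a −log10 p limit of 2 and 0.140 at a limit of 5. It was -0.103 without FN1, an alternative chosen after seeing the data. Assignment by any overlap gave 0.140 and leaving out clusters in another gene on the strand gave 0.141, and the median difference stayed at 0.02 in both. With each library left out the difference in share ran between -0.136 and 0.416. The difference in median log2 fold, 0.02, was -0.25 with the library median subtracted, also chosen after seeing the data, and ran between -0.053 and 0.093 with each library left out. The cause of these changes was not tested. Same-numbered libraries deviated together little (r = 0.0776 over 7563 stretches, between the replicate differences of both conditions). That value cannot decide whether they were prepared together, since folds over input may hide a shared preparation. With the replicate number as a block both differences were unchanged at 0.140 and 0.02 (exact sign-flip p = 1 each, smallest possible 0.5), with -0.00424 and 0.284 within numbers for the share.

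Peaks enriched in replicate 1 and overlapping an enriched one in replicate 2 numbered 1 with TGFβ1, in 1 gene, and 1 in control, which was shared. With limits of 4 for the log2 fold and 5 for the −log10 p, 0 listed peaks remained in either condition, in 0 genes, with 0 shared. Where overlap had to cover 0.5 of a peak's length, 0 of the TGFβ1 peaks and both control peaks were shared, since the control list splits the TNXB site into pieces of 33 and 40 nt. With each library left out, the TGFβ1 peaks ran between 1 and 4 in 1 to 3 genes, the control peaks between 1 and 2, and shared control peaks between 1 and 2. Of the members' stretches, 21 were higher with TGFβ1 as deposited, 13 and 12 in the other scalings (library median subtracted, highest and length-weighted mean fold), and 34 to 52 with each library left out. There were 23 lower as deposited, 36 and 50 in those scalings, and 32 to 50 with each library left out, since fewer libraries separate more easily. Over all 7563 stretches, 32.3% were higher and 9.44% lower as deposited. The shares were 22.1% and 15.7% for the median-subtracted highest fold, and 21.7% and 16.5% for the length-weighted mean. Those with a library left out are not given here. The TGFβ1 minus control difference in highest fold changed sign with some library left out in FN1 (0.16, down to -0.24), SPARC (0.09, down to -0.25), BGN (0.32, down to -0.31), DCN (-0.72, up to 0.18) and TNXB (-0.04, up to 0.26). In LUM, POSTN, VCAN and IGFBP7 it kept its sign. The median difference in highest fold, 0.16, ran between -0.25 and 0.55 with each library left out. Depth is unknown, so low folds and absent clusters are not shown to be absent binding.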
